A study of Rattus norvegicus with 12 samples.

Results

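Synovium of arthritic rats that had received a herbal preparation, Bi Zhong Xiao Decoction, was compared with synovium of untreated arthritic rats. The comparison was set by the sample labels alone and used 8 of the 12 samples of the study, 4 labelled BZXD and 4 labelled CIA. CIA stands for collagen-induced arthritis, in which immunisation with collagen gives rats an inflammatory joint disease that serves as a model of rheumatoid arthritis. The BZXD rats had the same disease and were also given the decoction, so that both groups carried the arthritis and differed by label in the treatment only. The other 4 samples, from normal rats, were not used. All 8 samples were synovial tissue of male rats, and no source used here gives their strain or age, the dose or the length of treatment. The RNA left after ribosomal RNA was removed was amplified with random primers into Cy3-labelled cRNA, and each sample was hybridised to a 1-colour array of messenger and long non-coding RNA probes.

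The synovium is the membrane that lines a joint and makes its fluid. In inflammatory arthritis its fibroblasts multiply, immune cells and new vessels enter it, and the thickened tissue turns to glycolysis. The pyruvate that glycolysis makes is then converted to lactate in this tissue. Extracellular ATP and adenosine act there as signals that raise and restrain inflammation, and nucleoside transporters clear adenosine from outside the cell. These statements are background and not results of the arrays.

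A probe is a short oligonucleotide on the array, and its brightness is called its intensity. From each log2 intensity the 75th percentile of all non-control probes on that array was taken away. The result is called the level, so that a level of 0 is the brightness of the array's 75th percentile. The scanner software states for each spot whether it is well above its background. A probe counted as detected on an array when most of its spots were well above background, and it was kept when it was detected on all 4 arrays of at least 1 group. This left 27289 of 38804 probes (70.3%), and of the 11515 others 4179 were detected on no array. A difference is the mean BZXD level minus the mean CIA level on the log2 scale. A probe is said to have risen or fallen where it passed the limma test at an adjusted p under 0.05, which 73.0% of the tested probes did, 27.0% higher and 46.0% lower in BZXD. These shares include probes detected in 1 group only. Such a probe passed the filter through the group where it is high, so that the filter set its direction, and it is given apart, with a bound on its fold and no test.

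The BZXD arrays were dimmer than the CIA arrays. The 75th percentile of intensity lay between 91.1 and 118 on the CIA arrays and between 24.7 and 32.7 on the BZXD arrays. Detected probes made up 76.0% ± 6.32 of a CIA array and 50.2% ± 4.46 of a BZXD array (SD, n = 4 each), with no overlap between the groups. The brightest probes lay closer together, with a 99th percentile of 12244 to 18133 in CIA and of 11555 to 12526 in BZXD. The bright corner spots, control oligonucleotides for placing the grid, had median intensities of 58683 to 76204 on the CIA arrays and of 14316 to 19249 on the BZXD arrays. Positive control spots named E1A had medians of 9.37 to 13.5 on the CIA arrays and of 1.09 to 1.54 on the BZXD arrays. The negative control spots had medians of 1.20 to 1.72 and of 1.01 to 1.40. The cause of these gaps was not tested. The CIA arrays shared 1 slide and 1 scan and the BZXD arrays another, so that treatment and slide cannot be told apart in any result given here. No spot was saturated. The 4 arrays per group limit the precision of every value, and a p-value reflects no more than the spread among these samples.

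**Figure D1:**
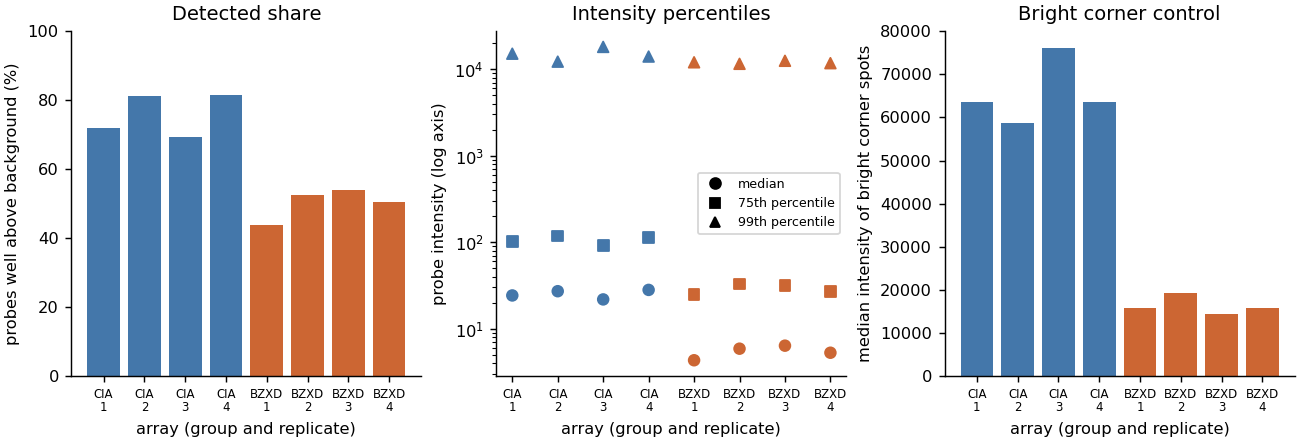
Share of probes well above background (left, in percent), median, 75th and 99th percentile of probe intensity (middle, log axis) and median intensity of the bright corner control spots (right) on the 4 CIA arrays (blue) and the 4 BZXD arrays (orange). Detected shares run from 69.3% to 81.6% in CIA and from 43.8% to 53.9% in BZXD.

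BZXD replicate 2 stood apart from the other BZXD arrays. The counts, and the values of the genes it moves, are given with and without it. Over the 12556 probes detected on all 8 arrays, the other 3 BZXD arrays correlated with each other at 0.990 to 0.992, and replicate 2 correlated with them at 0.836 to 0.854. The CIA arrays correlated with each other at 0.949 to 0.992. These correlations are across probes, which are not independent replicates.

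A gene name was available here for 30 probes, all of them catalogue probes printed in several spots each. Among them 16 were kept. Of these, 3 were detected on all 8 arrays: Slc28a2 rose, Ndfip1 fell and Pop7 did not pass the test. A further 5 were detected on all CIA and 1 to 3 BZXD arrays: Fgf2 and Med16 fell, and Dlg4, Ppp2r2b and Pdcd10 did not pass. These 5 passed the filter through CIA alone, and of all 5897 probes of that kind 2925 fell and 204 rose. The other 8 were detected in 1 group only. Ldha was detected in BZXD. Map2, Cyp2e1, Pdk3, Odf2l, P2rx2, Trim2 and Ptk2b were detected in CIA, 4 of them with a bound above 1 and 3 (P2rx2, Trim2 and Ptk2b) with no fold that can be bounded. These bounds hold for this scaling only. Without BZXD replicate 2, Ppp2r2b rose and Dlg4 fell, in a fit in which 82.3% of the tested probes passed, 32.3% higher and 50.1% lower. In bulk tissue, fewer cells of a type and less RNA per cell cannot be told apart.

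Ldha encodes the A subunit of lactate dehydrogenase, which turns pyruvate into lactate at the end of glycolysis. Slc28a2 encodes a sodium-driven carrier of purine nucleosides such as adenosine. Map2 encodes a microtubule-binding protein best known in neurons. The 250 bases before the RefSeq start of these 3 genes are shown because Slc28a2 had the largest difference of the named genes measured on all 8 arrays, and Ldha and Map2 the highest bounds on the BZXD and the CIA side. Capitals mark matches of a pair of motifs searched on both strands: ACGTG (reverse complement CACGT), the core of the element bound by hypoxia-inducible factors, and GGGCGG (reverse complement CCGCCC), the GC box bound by Sp1.
Ldha: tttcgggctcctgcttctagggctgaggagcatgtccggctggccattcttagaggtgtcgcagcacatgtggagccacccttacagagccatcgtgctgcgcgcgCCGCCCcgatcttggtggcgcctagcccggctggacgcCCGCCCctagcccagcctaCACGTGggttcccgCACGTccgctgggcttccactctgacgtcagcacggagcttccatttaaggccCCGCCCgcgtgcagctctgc
Slc28a2: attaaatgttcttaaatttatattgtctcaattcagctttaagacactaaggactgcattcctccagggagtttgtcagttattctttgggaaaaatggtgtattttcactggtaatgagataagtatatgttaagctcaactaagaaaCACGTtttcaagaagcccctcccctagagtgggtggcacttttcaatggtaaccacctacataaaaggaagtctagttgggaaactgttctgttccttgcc
Map2: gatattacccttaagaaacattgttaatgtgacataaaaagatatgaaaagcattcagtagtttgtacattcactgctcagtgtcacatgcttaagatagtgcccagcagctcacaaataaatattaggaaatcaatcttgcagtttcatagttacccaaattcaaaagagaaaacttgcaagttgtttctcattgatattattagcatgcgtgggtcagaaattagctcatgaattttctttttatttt
The Ldha window lies at chr1:106507842-106508091 on the plus strand of GRCr8. It holds 3 matches of ACGTG, among them the overlapping strands of CACGTG counted apart, and 3 of the GC box. The Slc28a2 window, at chr3:129819538-129819787 on the plus strand, holds 1 match of ACGTG and 0 of the GC box. The Map2 window, at chr9:75346440-75346689 on the plus strand, holds 0 of each. Of 33469 RefSeq promoter windows of the same length, 16.6% hold ACGTG and 30.5% the GC box. Of the 16 kept genes 13 had such a window, 8 of them with ACGTG and 5 with the GC box. A match of letters is a description and not a site in use.

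Among genes of glycolysis and of the fate of pyruvate, Ldha was detected in BZXD only and Pdk3 in CIA only, and these were the 2 named on the array among 26 listed. Ldha had intensities of 1.86, 1.35, 1.71 and 1.5 on CIA replicates 1 to 4 and of 44.9, 131, 60.1 and 59.2 on BZXD replicates 1 to 4. None of its 36 unmarked CIA spots and all 37 unmarked BZXD spots were well above background. On the CIA arrays its signal thus lay near that of the negative control spots, 1.20 to 1.72, although Ldha is known as a gene that most tissues express. Its levels were -6.45 to -5.74 in CIA and 0.86 to 2.0 in BZXD. Ldha was at least 36.0-fold higher in BZXD, and at least 30.2-fold without BZXD replicate 2, which held the highest value, where the bound is the BZXD mean against the faintest signal that counted as detected on the CIA arrays. Its intensities were higher in BZXD although the BZXD arrays were the dimmer ones. The bound holds only for this scaling and background treatment. With normexp background correction at an offset of 50 the fitted log2 difference of Ldha was 2.095, and with quantile scaling as well it was 1.828.

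Pdk3 encodes a kinase that switches off pyruvate dehydrogenase and so keeps pyruvate out of the mitochondrial cycle. It stood at intensities of 25.9, 37.0, 18.2 and 28.9 in CIA and 2.98, 5.13, 3.21 and 4.24 in BZXD. It was detected on all 4 CIA arrays and on 0 BZXD arrays, although 9 of its 40 BZXD spots were well above background. Its levels were -2.32 to -1.68 in CIA and -3.30 to -2.67 in BZXD. Pdk3 was at least 1.68-fold lower in BZXD, and at least 1.71-fold without BZXD replicate 2. These bounds hold for this scaling only. The fitted log2 difference of -0.94 became -0.59 with median scaling and -0.53 with quantile scaling, both smaller than the bound.

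Among genes of purine signalling, Slc28a2 rose and P2rx2 was detected in CIA only, 2 named of 20 listed. Slc28a2 was the named gene with the largest difference measured on all 8 arrays. Its intensities were 20.03, 26.0, 18.4 and 26.1 in CIA and 65.5, 266, 91.4 and 67.7 in BZXD, and every one of its 39 CIA and 35 BZXD unmarked spots was well above background. The levels were -2.35 to -2.12 in CIA and 1.32 to 3.02 in BZXD, with replicate 2 again the highest BZXD array and no overlap. The difference for Slc28a2 was 4.06 ± 0.37 (SE, limma adjusted p = 2.15e-05), and 3.66 ± 0.13 without BZXD replicate 2. Before scaling the difference was 2.19. Of the 12556 probes detected on all 8 arrays, 96.8% had a lower difference than Slc28a2.

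P2rx2 encodes an ATP-gated cation channel. It was near background in BZXD, at intensities of 1.55, 1.64, 1.57 and 1.05 against 14.5, 19.3, 11.6 and 15.6 in CIA, and 1 of its 38 BZXD spots was well above background. No fold is given, because after scaling the CIA mean level of -2.82 was below the faintest detected level averaged over the BZXD arrays, which ran from -2.95 to -2.66. Before scaling, the CIA intensities were above the faintest detected BZXD intensities, 3.86 to 4.39.

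**Figure D2:**
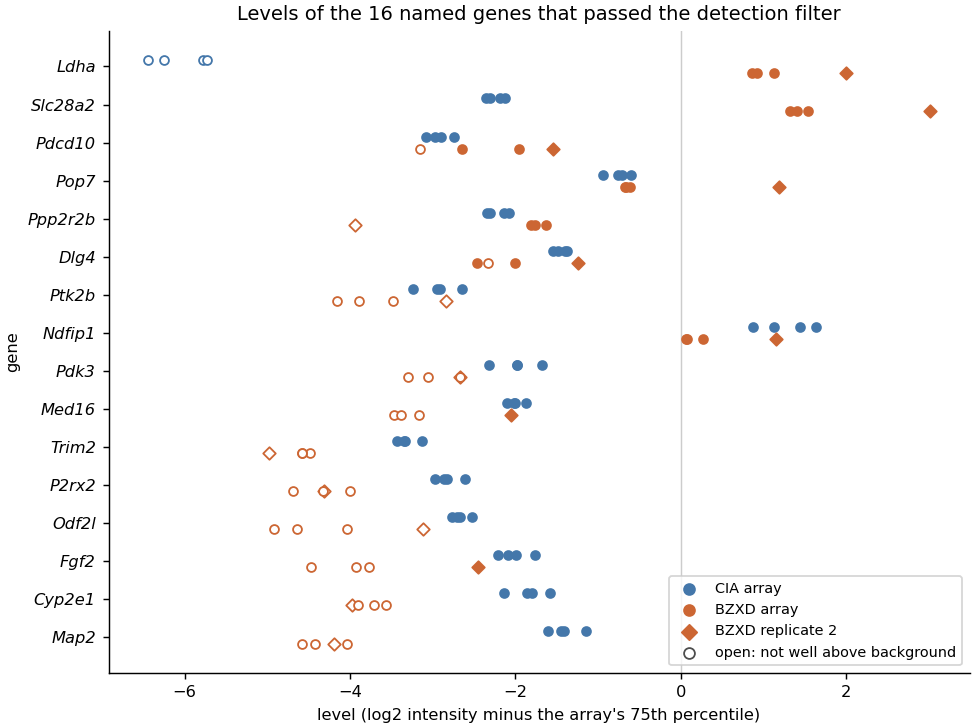
Levels (log2 intensity minus the array's 75th percentile) of the 16 kept named genes on each CIA array (blue) and BZXD array (orange), with BZXD replicate 2 as a diamond and open symbols where the probe was not well above background. Ldha and Slc28a2 lie to the right in BZXD, and most other genes lie to the left, in part as open symbols, with replicate 2 often away from the other 3 BZXD arrays.

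Among neuronal and synaptic genes 5 of 11 listed were named and 3 were kept, of which Map2 was detected in CIA only and Dlg4 and Ppp2r2b did not pass. Map2 had intensities of 37.7, 53.4, 29.8 and 42.9 in CIA and 1.5, 1.79, 1.47 and 1.13 in BZXD. All 38 unmarked CIA spots and none of the 37 BZXD spots were well above background. Map2 was at least 2.63-fold lower in BZXD, and at least 2.57-fold without BZXD replicate 2. That array had the highest BZXD intensity, but its level of -4.19 lay inside the range of the other BZXD arrays, -4.585 to -4.04.

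Dlg4, a scaffold of the postsynaptic density, was detected on 3 of the 4 BZXD arrays. Its levels were -1.54 to -1.38 in CIA and -2.33, -1.25, -2.47 and -2.01 in BZXD, where replicate 2 lay above every CIA array and the other 3 below. The difference was -0.56 ± 0.27 (limma adjusted p = 0.0910), and without replicate 2 Dlg4 fell, at -0.82 ± 0.15 (adjusted p = 0.00105). Dlg4 passed the filter through CIA alone, which favours a fall. Without replicate 2, 3425 of the 5897 such probes fell and 613 rose.

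Ppp2r2b, a regulatory subunit of protein phosphatase 2A, went the opposite way on that array. BZXD replicate 2 was at -3.94, not well above background, against -1.81 to -1.63 on the other BZXD arrays and -2.34 to -2.08 in CIA. The difference of -0.07 ± 0.49 (limma adjusted p = 0.899) became a rise of 0.48 ± 0.13 without it (adjusted p = 0.00944). In that fit 32.3% of all tested probes rose, and 613 of the 5897 that passed the filter through CIA alone, as Ppp2r2b did. With scaling over probes measured on all 8 arrays as well, its rise was 0.22 and did not pass (limma adjusted p = 0.114). With quantile scaling instead it was 0.74 (adjusted p = 0.00290).

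Among genes of growth factors and vessels 4 of 18 were named and 3 kept, of which Fgf2 fell, Pdcd10 did not pass and Ptk2b was detected in CIA only. Fgf2, a growth factor for fibroblasts and vessels, had intensities of 30.2, 25.5, 21.4 and 28.7 in CIA and 1.81, 5.97, 2.07 and 1.22 in BZXD. It was detected on BZXD replicate 2 alone, whose level of -2.45 lay close to the -2.21 to -1.76 of CIA, while the other BZXD arrays lay between -4.47 and -3.77. The fitted difference of Fgf2 was -1.64 ± 0.40 (SE, limma adjusted p = 0.00505). Without replicate 2 the fit gave -2.04 ± 0.20, but Fgf2 was then detected in CIA only, so that this value is not a measured fall. The size rests on BZXD signals near background. Fgf2 also passed the filter through CIA alone, which favours a fall: of the 5897 such probes 2925 fell and 204 rose.

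Ptk2b, a calcium-responsive tyrosine kinase, was detected on 0 BZXD arrays and overlapped CIA through replicate 2, at -2.84 against -3.23 to -2.64 in CIA. After scaling, the CIA mean level of -2.94 lay below the floor averaged over the BZXD arrays, so that no fold is given. Before scaling, its CIA intensities of 9.68 to 18.9 were above the faintest detected BZXD intensities, 3.86 to 4.39. Pdcd10, which takes part in endothelial junctions as a cerebral cavernous malformation gene, had levels of -3.08 to -2.75 in CIA and of -3.16, -1.54, -2.65 and -1.96 in BZXD. The BZXD arrays lay on both sides of the CIA arrays, and the difference of 0.60 ± 0.34 did not pass (adjusted p = 0.141). Without BZXD replicate 2, the highest, the difference was 0.34 (limma adjusted p = 0.268). With scaling over probes measured on all 8 arrays it was 0.38 (adjusted p = 0.367), and 0.08 with that scaling and without replicate 2 (adjusted p = 0.793). Without BZXD replicate 1, the lowest, Pdcd10 rose by 0.88 (limma adjusted p = 0.0231). It also passed with quantile scaling, at 1.12 (adjusted p = 0.00988), and with median scaling, at 0.95 (adjusted p = 0.0320), with array weights, at 0.55 (adjusted p = 0.0482), and with normexp correction, at 0.75 (adjusted p = 2.69e-05).

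Among ubiquitin ligases and their adaptors 3 of 10 listed were named: Ndfip1 fell, Trim2 was detected in CIA only and Ndfip2 was not kept. Ndfip1, an adaptor that recruits Nedd4-family ligases and restrains T cell activation, had levels of 0.88 to 1.63 in CIA. In BZXD it stood at 0.08, 1.15, 0.07 and 0.27, so that replicate 2 lay within the CIA range and the other 3 below it. The difference for Ndfip1 was -0.88 ± 0.29 (limma adjusted p = 0.0243), and -1.13 ± 0.20 without replicate 2 (adjusted p = 0.000876). With each of the other BZXD arrays, or CIA replicate 1 or 2, left out, it was not past the threshold, at -0.84 to -0.76. With median scaling it stood at -0.53 (adjusted p = 0.164). Trim2, a ubiquitin ligase of neurons, had intensities of 10.03 to 11.7 in CIA and 1.04 to 1.32 in BZXD, where none of its 37 spots was well above background. No fold can be bounded for it.

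Among genes of transcription, RNA processing and translation 3 of 13 listed were named and 2 kept, of which Med16 fell and Pop7 did not pass. Med16, a subunit of the Mediator complex, was detected on BZXD replicate 2 alone, at -2.06, inside the CIA range of -2.11 to -1.87. The other BZXD arrays were at -3.47 to -3.17. Med16 passed the filter through CIA alone, so that the filter favoured a fall. Med16 fell by 1.02 ± 0.31 (limma adjusted p = 0.0163). It did not pass with quantile scaling (-0.59, adjusted p = 0.103) or median scaling (-0.67, adjusted p = 0.0946). Without replicate 2 the fit gave a fall of 1.34 ± 0.13, but Med16 was then detected in CIA only, so that this value is not a measured fall. Pop7, a subunit of ribonuclease P, was detected on all 8 arrays. It stood at -0.94 to -0.61 in CIA and at -0.61, 1.19, -0.68 and -0.66 in BZXD, so that 3 BZXD arrays lay within the CIA range and replicate 2 far above it. The difference was 0.56 ± 0.42 (adjusted p = 0.250), and 0.10 ± 0.13 without replicate 2. Eif4b, a translation initiation factor, was detected on 3 arrays of each group and was therefore not kept or tested, with levels of -3.70 to -3.15 in CIA and -2.65, -1.22, -2.33 and -1.93 in BZXD.

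Cyp2e1, a cytochrome P450 of xenobiotic metabolism and the 1 named gene of 9 on that list, had intensities of 29.5, 39.4, 20.7 and 31.4 in CIA and 2.06 to 2.11 in BZXD. It was detected on 0 BZXD arrays and was at least 1.94-fold lower there, and at least 1.89-fold without replicate 2. Odf2l, a centrosome-related gene, had levels of -2.76 to -2.53 in CIA and -4.92 to -3.12 in BZXD. It was at least 1.1-fold lower, and at least 1.07-fold without replicate 2. The bounds of both genes hold for this scaling only. With median scaling the fitted log2 difference of Odf2l moved from -1.515 to -1.168, a shift larger than its bound.

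The direction of the dim named genes depended on how low signals were treated together with the scaling between arrays. Under normexp background correction with an offset of 50, the negative fitted differences of Map2, Cyp2e1, Pdk3, Odf2l, P2rx2, Trim2, Ptk2b, Dlg4, Ppp2r2b, Fgf2 and Med16 turned positive, at 0.16 to 0.65, while Ndfip1 stayed lower at -0.75. The median of all tested probes moved from -0.63 to 0.40 under it. Ldha and Slc28a2 were still higher in BZXD, Ldha by 2.095 and Slc28a2 by 1.99. With quantile scaling added to this correction, the genes that had turned were negative again, at -0.39 to -0.01, apart from Ppp2r2b at 0.07. The median of all tested probes was then -0.10.

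The named genes below the filter, other than Eif4b, were Cdh2, Cse1l, Enpp1, Gdnf, LOC108352165, Lhcgr, Magoh, Mex3c, Napepld, Nat1, Ndfip2, Nlrp3 and Pld1. Nlrp3, the sensor of an inflammasome, had intensities of 2.22 to 4.16 in CIA and 1.03 to 1.46 in BZXD. Magoh, a core protein of the exon junction complex, was detected on BZXD replicate 2 alone, at 14.4 against 2.38 to 3.19 on the other BZXD arrays and 1.21 to 1.73 in CIA. Enpp1, Cse1l and Ndfip2 were also detected on that array and on no other of the 8. Of the cytokine and matrix lists, with 13 and 11 genes, none was named here, and of 92 markers of cell types that joint tissue can hold, Map2 and Dlg4 were the named ones. The labelled tissue could therefore not be checked against markers of synovium, and cell types moving with a result were not tested.

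Over all kept probes, which apart from the catalogue probes carry only design identifiers here, the 2 groups differed widely. Of the 12556 detected on all 8 arrays, 8652 were called (68.9%), 4759 higher (37.9%) and 3893 lower (31.0%), with a median of 0.19. The groups did not overlap at 65.8% of these 12556 probes (35.5% higher, 30.3% lower), and at 81.4% without BZXD replicate 2 (45.5% higher, 35.8% lower). Higher calls made up 55.0% of the calls there, and 56.2% without BZXD replicate 2. The share was 65.2% with median scaling, 48.1% with quantile scaling and 43.6% in the authors' deposited values, whose medians lay at 0.54, -0.02 and -0.15. Over all 27255 tested probes, one-sided ones included, 19896 were called, 7356 higher and 12540 lower, and the difference had its median at -0.63. The higher ones were 37.0% of the calls, 72.5% under the offset correction and 37.7% under that correction with quantile scaling. The groups did not overlap at 69.6% of the kept probes with a value on every array (23.4% higher, 46.2% lower), and at 81.5% (29.8% and 51.7%) without BZXD replicate 2. These figures over all kept probes carry the direction that the filter set for the one-sided probes.

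Large rises outnumbered large falls. Among the called probes detected on all 8 arrays, 2271 rose and 1044 fell at least 4-fold, 431 and 39 at least 16-fold, and 65 and 1 at least 64-fold. Without BZXD replicate 2 the corresponding counts were 2418 and 1092, 510 and 46, and 82 and 5. Direction also went with brightness. With these probes split by mean level into 5 bins of equal size, in the brightest bin 1546 rose and 345 fell, with a median difference of 1.43, and in the dimmest bin 1151 rose and 436 fell, with a median of 0.59. In the 3 bins between, falls were the more frequent calls, at 1019 against 710, 1106 against 657 and 987 against 695. Without BZXD replicate 2 the brightest bin held 1682 rises and 417 falls and the dimmest 1350 and 520, and falls were again more frequent in the 3 bins between (1129 against 903, 1226 against 834 and 1149 against 939). These counts hold for that scaling: without scaling, 1264 of the probes detected on all 8 arrays were called higher and 8305 lower. The faintest detected level was also higher on the BZXD arrays, at -2.95 to -2.66 against -4.37 to -3.45 in CIA. A probe that fell below it on a BZXD array is not in this set. The parts of the scaling, the scan and the slide in this pattern were not tested.

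**Figure D3:**
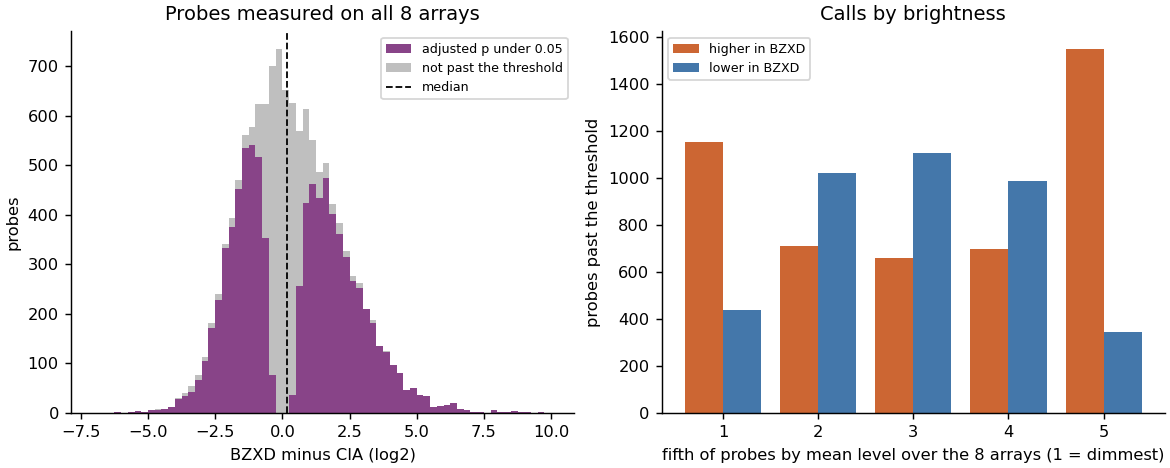
Left, differences (BZXD minus CIA, log2) of the 12556 probes detected on all 8 arrays, with called probes in purple, the others in grey and the median of 0.19 as a dashed line. Right, number of called probes higher (orange) and lower (blue) in BZXD in each of 5 equal bins of these probes by mean level, from the dimmest (1) to the brightest (5), where 1546 are higher and 345 lower.

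Ranked by the difference over the 8 arrays, the largest rises belonged to unnamed probes that lay below or near the 75th percentile of the CIA arrays and far above that of the BZXD arrays. ASRN6AP1B100061498V3 had levels of -3.32 to -2.17 in CIA and 6.25, 7.98, 6.54 and 6.73 in BZXD, a rise of 9.52 ± 0.41 (limma adjusted p = 1.18e-06). ASRN6AP1B100055886V3 rose by 9.19 ± 0.31, ASRN6AP1B100071176V3 by 9.02 ± 0.29 and ASRN6AP1B100011035V3 by 8.84 ± 0.32. Over these 4 probes the lowest BZXD level was 6.25 and the highest CIA level 0.43, and leaving out replicate 2 gave rises of 8.92 to 9.15. Without that array the order was another: ASRN6AP1B107372763V3, ASRN6AP1B100054547V3 and ASRN6AP1B101761000V3 came first, at 9.997, 9.872 and 9.652, with replicate 2 at 2.90, 2.28 and -0.97. These 3 were singled out after their values were seen.

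The largest falls in the same ranking were less uniform. ASRN6AP1B100061585V3 had levels of 3.73 to 5.71 in CIA and -1.49, 0.20, -1.34 and -2.11 in BZXD, a difference of -6.14 ± 0.58 (limma adjusted p = 2.53e-05). ASRN6AP1B100051942V3 stood at 4.71 to 5.66 in CIA and at -1.85, 3.41, -1.20 and -1.83 in BZXD. ASRN6AP1B100021072V3 stood at 5.15 to 6.09 and at -1.34, 3.84, -0.49 and -1.71. In both, replicate 2 lay nearer to the CIA arrays than to the other BZXD arrays, and the difference moved from -5.62 to -6.88 and from -5.59 to -6.85 without it. ASRN6AP1B108130279V3 fell by 5.35 ± 0.67, and by 6.04 without replicate 2, which was at 2.18 against -1.40 to -0.03 on the other BZXD arrays. Without that array ASRN6AP1B101619508V3, at -6.26, took its place among the 4 largest.

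Detection itself differed between the groups. Of the kept probes 687 (2.52%) were detected on all BZXD arrays and no CIA array, and 5981 (21.9%) on all CIA arrays and no BZXD array. A further 782 were detected on all BZXD and 1 to 3 CIA arrays, and 5897 on all CIA and 1 to 3 BZXD arrays. At 1386 kept probes every spot of some array was marked as an outlier, 900 of them on BZXD replicate 2. The 2 one-sided sets were not alike. All 687 BZXD probes had a bound of at least 2-fold and 305 of at least 16-fold, with a median of 13.9-fold, while 1758 of the 5981 CIA probes (29.4%) had a bound of at least 2-fold and 15 of at least 16-fold, with a median of 1.42-fold. Without BZXD replicate 2, 687 and 1697 had a bound of at least 2-fold and 220 and 14 of at least 16-fold, with medians of 10.7-fold and 1.38-fold. The faintest detected level was -2.95 to -2.66 on the BZXD arrays and -4.37 to -3.45 on the CIA arrays, and the median CIA level of the 5981 probes was -2.29. At its median the CIA set was thus, after scaling, less than 2-fold brighter in CIA than the detection limit of the BZXD arrays.

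The highest bounds in the BZXD set belonged to CUST_5_PI421900130, at least 217.9-fold higher, ASRN6AP1B100014339V3, at least 173.2-fold, and ASRN6AP1B100012882V3, at least 167.8-fold. On all 3, BZXD replicate 2 was the highest array, and without it the bounds were 154.6-fold, 121.9-fold and 116.4-fold. In the CIA set they belonged to ASRN6AP1B100048515V3, at least 49.2-fold lower in BZXD, and ASRN6AP1B100032592V3, at least 44.8-fold, both with CIA replicate 3 far below the other CIA arrays: -0.16 against 2.75 to 4.49 and -1.03 against 2.64 to 4.79. Without CIA replicate 3 the bounds were 97.9-fold and 105.6-fold. The third, uc.327+_P1V3, had an even CIA level of 1.59 to 1.76 and was at least 22.3-fold lower.

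**Figure D4:**
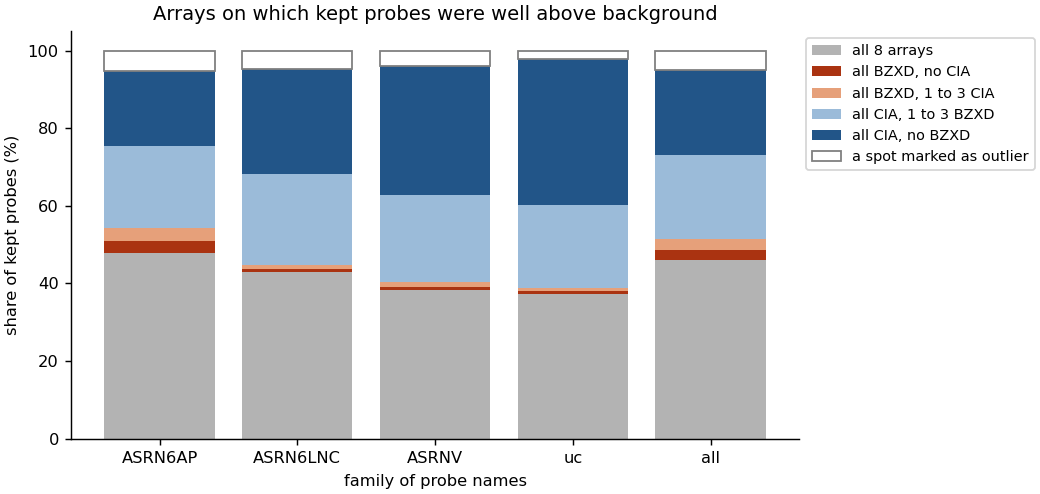
Share of kept probes (percent) by the arrays on which they were well above background, for the 4 largest families of probe names and for all kept probes. Over all kept probes 46.0% were detected on all 8 arrays, 21.9% on all CIA and no BZXD array and 2.52% on all BZXD and no CIA array; a white part marks probes with an array whose spots were marked as outliers.

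Families of probe names, whose meaning the files do not state, had the following shares. Of kept probes named ASRN6AP 19.1% were detected on all CIA arrays and no BZXD array, beside 26.8% of those named ASRN6LNC, 33.2% of those named ASRNV and 37.6% of those named uc, the numbering used for ultraconserved elements. Among probes detected on all 8 arrays, 68.7% to 69.0% of the first 3 families and 67.3% of the last were called, close to the 68.9% of all such probes. The share of these calls that was higher in BZXD was 57.8% for ASRN6AP, 48.9% for ASRN6LNC, 40.2% for ASRNV and 42.1% for uc, and with quantile scaling 51.0%, 40.5%, 34.2% and 38.7%. With median scaling they were 67.8%, 60.2%, 50.2% and 54.5%, and without BZXD replicate 2 they were 58.3%, 52.7%, 44.3% and 50.4%, so that which direction was the more frequent in ASRN6LNC, ASRNV and uc depended on the setting. In ASRN6AP rises were the more frequent calls in these settings. Without scaling, 13.2% of the calls among probes detected on all 8 arrays were higher over all families, and that share is not given by family. The difference between families was not tested.

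BZXD replicate 2 was the array on which most of the spread in BZXD rested. The median SD of a probe over the 4 BZXD arrays was 0.46, beside 0.20 without replicate 2 and 0.16 over the 4 CIA arrays. By Dixon's ratio it stood apart from the other BZXD arrays at 19.5% of the 12556 probes, above them at 1125 and below them at 1324, where each of the other 7 arrays stood apart in its group at 0.175% to 1.52%. At 1406 of these 2449 probes (57.4%) its value lay toward the CIA mean, 842 of them past that mean, and at 1043 away from it. This share was close to the 56.0% over all 12556 probes. Without replicate 2, 10149 of the 12556 probes were called (80.8%), 5708 higher (45.5%) and 4441 lower (35.4%). Of the 8652 calls with it 8618 were also made without it, all in the same direction, 34 were lost and 1531 were gained. At 84.8% of the probes called without it, replicate 2 lay on the same side of the CIA mean as the call. It also held the largest share of spots marked as outliers, 3.29%, beside 0.823% to 2.02% on the other BZXD arrays; their part in its values was not tested.

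**Figure D5:**
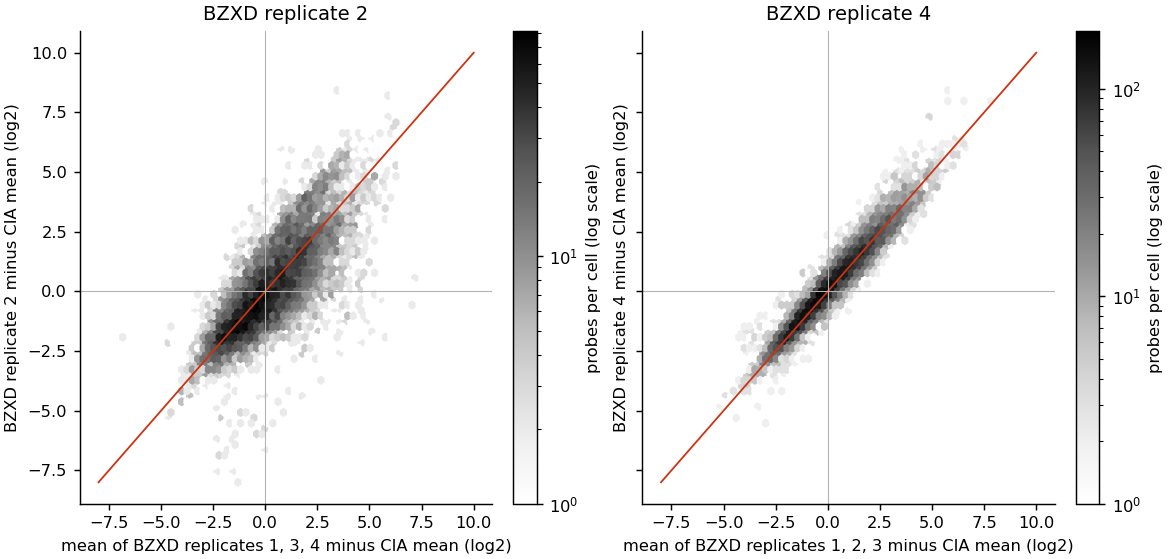
Difference from the CIA mean (log2) of BZXD replicate 2 (left) and, for reference, of BZXD replicate 4 (right), against that of the mean of the other 3 BZXD arrays, over the 12556 probes detected on all 8 arrays; shading gives the number of probes per cell on a log scale and the line marks equality. Replicate 4 follows the line and replicate 2 scatters widely to both sides of it.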

How the data were processed

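Per the file headers, the deposited files are scanner output of Agilent Feature Extraction 11.0.1.1, with the intensity of each spot after background subtraction and flags of 0 or 1. Here spots marked as outliers were dropped, the log2 intensities of 1 probe's spots averaged, and the array's 75th percentile (all non-control probes) subtracted. Probes well above background on all 4 arrays of at least 1 group entered a limma fit (version 3.58.1, R 4.3.3) of the 8 arrays with a mean per group, Benjamini-Hochberg adjustment over 27255 probes and a two-sided call at adjusted p under 0.05. The 34 kept probes without a value in some group were not tested. Leaving out an array kept the set of probes.

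A bound is the mean of the brighter group less a floor for the dimmer one; the floor averages, array by array, the faintest detected level or the probe's own level if higher. Correlations are Pearson's. The members, lists and tests were chosen with earlier results of these data known. Every catalogue probe that the identifiers in the files and the RefSeq table pair with 1 symbol is named; of the unnamed probes, the 4 largest rises and 4 largest falls without overlap and the 3 highest bounds in each direction are given. Of 50 catalogue probes 48 carry an identifier and 30 matched; the other 38754 probes are unnamed here. Of 10 pathway lists with 146 genes, 20 genes were named, and of 14 marker lists with 92 genes, 1 list had named members.

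The deposited value table holds the authors' log2 values of 38620 probes, none of them a named gene. Its columns correlated with the log2 intensities at 0.964 to 0.988, with a median of 3.75 on 7 arrays and of 2.80, also the lowest value, on BZXD replicate 1. Its centring and floor are unknown here, and it served as an alternative. The normexp alternatives used the median spot and background intensities in the deposited files. The alternatives run were 23 set out with the design and 4 added once the data had been seen. The calculation was tested on simulated data. Figures were drawn with matplotlib 3.10.9.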

Additional observations from a re-analysis of the deposited data

Results flagged for a closer look

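Dixon's ratio, the gap of the outermost array to its neighbour over the whole range of the group, passed its 95% critical value in 8 of 66 groups of 4 arrays; chance does so in about 1 in 20. BZXD replicate 2 was the array in 7 of them. It had Slc28a2 at 3.02 against 1.32 to 1.53 on the other BZXD arrays (ratio 0.876), Pop7 at 1.19 against -0.68 to -0.61 (ratio 0.964) and Ppp2r2b at -3.94 against -1.81 to -1.63 (ratio 0.923). Among unnamed probes it had ASRN6AP1B100051942V3 at 3.41 against -1.85 to -1.20 (ratio 0.877), CUST_5_PI421900130 at 5.31 against 3.17 to 3.46 (ratio 0.866), ASRN6AP1B100014339V3 at 5.01 against 2.93 to 3.04 (ratio 0.949) and ASRN6AP1B100012882V3 at 5.03 against 2.80 to 3.12 (ratio 0.855). These values are thus above the other BZXD arrays at 6 of the 7 and below them at Ppp2r2b. The eighth was CIA replicate 4, with ASRN6AP1B100014339V3 at -4.24 against -5.88 to -5.61 on the other CIA arrays (ratio 0.834), where the probe was not well above background on any CIA array. BZXD replicate 2 entered the means by which the highest bounds in BZXD were picked, which favours probes where it is high. Over the 12556 probes detected on all 8 arrays it stood apart above at 1125 and below at 1324. The 66 groups reuse the same 8 arrays, so that the rate of 1 in 20 gives no test.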

How the results depend on the processing

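The rise of Slc28a2 stayed past the threshold in every setting run, at 1.93 to 4.41 on the log2 scale, the lowest value with normexp and quantile scaling. With the offset correction of 50 Map2 stood at 0.16, Fgf2 at 0.42, Dlg4 at 0.31, Ppp2r2b at 0.57, P2rx2 at 0.57, Odf2l at 0.55, Med16 at 0.46, Cyp2e1 at 0.33, Pdk3 at 0.44, Ptk2b at 0.63 and Trim2 at 0.65, all with the sign turned. Ppp2r2b also turned with median scaling (0.27), quantile scaling (0.30), normexp and quantile scaling (0.073), array weights (0.41) and without BZXD replicate 2 (-0.29 to 0.48 over the 8 arrays left out in turn; without replicate 2, 0.22 with scaling over probes measured on all 8 arrays and 0.74 with quantile scaling). Ptk2b turned with quantile scaling (0.083). With the offset correction and quantile scaling together, the genes turned by that correction stayed negative, from Map2 at -0.39 to Ptk2b at -0.01, apart from Ppp2r2b. Without scaling between arrays Pop7 stood at -1.31 and Pdcd10 at -1.28, and Pop7 was at -0.15 without BZXD replicate 2 and with scaling over probes measured on all 8 arrays. The cause of these changes was not tested.

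Against 19896 calls, 7356 higher and 12540 lower, there were 15893 higher and 6033 lower with the offset correction, 3065 higher and 20069 lower without scaling, and 11601 higher without a filter. With 12556 probes entering the fit there were 8719 calls, 4768 higher and 3951 lower, and without BZXD replicate 2 as well 10358, 4554 of them lower. Among the probes measured on all 8 arrays the 4759 higher and 3893 lower calls became 1264 and 8305 without scaling. With 1 array left out the calls numbered 18345 to 22435, 6794 to 8799 higher and 11549 to 13636 lower, and among the probes measured on all 8 arrays 7818 to 10149, 4313 to 5708 higher and 3505 to 4441 lower. The highest of each of these ranges came without BZXD replicate 2. The probes detected in BZXD only numbered 687, and 693 to 857 with 1 array left out; those detected in CIA only numbered 5981, and 5990 to 7188. With the flag for a positive and significant signal they were 309 and 3037.

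With the replicate number as a block 19535 probes were called. Deviations of same-numbered CIA and BZXD arrays correlated at 0.243, 0.383, 0.387 and -0.135, so the numbers were not taken to pair the samples. A slide block could not be fitted, because each slide holds 1 group. Signal over background limits the falls: BZXD arrays detected about 50.2% of probes.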
